A study of Mus musculus with 16 samples.

Results

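The step from monocyte-dendritic progenitors (MDPs) to common dendritic progenitors (CDPs) was measured in wild-type (WT) mouse bone marrow cells, as the difference between WT CDPs and WT MDPs recovered after 24 h of culture with Flt3L. The comparison rests on 8 of the 16 arrays of the series, chosen by their labelled genotype and population: 4 of WT CDPs and 4 of WT MDPs. In each population 2 arrays were of cells given the γ-secretase inhibitor Compound E (GSI) at 5 µM and 2 of cells given the vehicle DMSO. The other 8 arrays hold CDPs and MDPs of IkL/L mice, which carry a hypomorphic allele of the transcription factor Ikaros, in the same treatments. Animals were aged 6 to 9 weeks, and each condition came from 2 mice. The sorted CD45.2+ progenitors were Lin-Sca1-CD135+CD115+ cells, with low CD117 for CDPs and high CD117 for MDPs. They shared the culture with whole bone marrow of CD45.1+ mice, and the CD45.2+ cells were sorted out again before the RNA was taken. MDP and CDP therefore name the cells that were put into culture, and the RNA is that of their descendants or survivors a day later.

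MDPs are progenitors of both monocytes and dendritic cells (DCs), and the CDPs that descend from them are restricted to DCs. CDPs give rise to plasmacytoid DCs (pDCs), which secrete type I interferon, and to conventional DCs (cDCs), which take up antigen and present it to T cells on MHC class II molecules. Flt3L binds the receptor tyrosine kinase Flt3 and drives both branches, whereas the receptors Kit and Csf1r serve earlier progenitors and the monocyte lineage.

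The signals are log2 values from the authors' RMA summary of Affymetrix Mouse Gene ST arrays, and a difference of 1 is a doubling of signal. Array medians lay between 4.52 and 4.65 in all 8 WT arrays, and replicate arrays of a WT group correlated with r between 0.983 and 0.992 across genes. Genes of an array are no replicates of each other. Of the receptor genes behind the gates, *Csf1r* was close to 10 in every array, at 10.77, 10.12, 10.52 and 9.99 in WT CDPs and 10.22, 10.25, 9.62 and 10.06 in WT MDPs. Here and below the 4 values of a population are those of vehicle replicates 1 and 2 and then of GSI replicates 1 and 2. *Kit*, which separated the gates, had 5.71, 6.64, 4.85 and 5.92 in WT CDPs and 8.05, 6.93, 7.90 and 6.40 in WT MDPs, so that 1 CDP array reached the range of the MDP arrays. The Y-linked gene *Eif2s3y* lay between 6.63 and 6.90 in the 4 arrays labelled replicate 1 and between 3.06 and 3.52 in the 4 labelled replicate 2. The sex-linked gene *Xist* lay between 8.76 and 9.37 in all 8 WT arrays and did not follow the replicate number, and the sex of the animals was not determined. The replicate number thus goes with a difference in Y-linked signal that crosses both populations and both treatments equally. It cannot be told apart from any other difference between the replicates, and differences within each replicate number are given for some of the genes below.

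More genes rose than fell in WT CDPs. At an adjusted p under 0.05 from limma, 135 of 19938 genes were higher in WT CDPs than in WT MDPs (0.677% of the genes tested) and 31 were lower (0.155%). An unadjusted p under 0.05 was reached by 1901 of the 19938 genes over both directions, which is the baseline for such counts in the lists below. With the 8 WT arrays alone 18 genes were higher and 1 lower at the adjusted threshold. The 4 CDP arrays lay above all 4 MDP arrays for 479 genes (2.4%) and below them for 414 (2.08%), and this held for 129 of the 135 higher and 28 of the 31 lower genes. The rises were also the larger changes, with 27 genes more than 4-fold higher and 4 genes more than 4-fold lower. The median log2 difference of all genes was -0.01, and 45.2% of genes had a positive difference. In RNA from mixed cells, fewer cells of a type and less RNA per cell cannot be told apart. Leaving out 1 array at a time gave between 61 higher genes (without MDP replicate 1 with GSI or replicate 2 with vehicle) and 227 (without CDP replicate 1 with GSI). The lower genes then numbered 6 without vehicle-treated MDP replicate 2 and 89 without GSI-treated CDP replicate 1, and 49 higher and 3 lower genes passed without any 1 of the 16 arrays.

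Transcripts for MHC class II molecules led the rises. *H2-Aa*, *H2-Eb1* and *H2-Ab1*, which encode chains of the class II molecules I-A and I-E, and *Cd74*, the invariant chain that escorts them, were between 20.1-fold and 31.5-fold higher in WT CDPs. *Ciita*, the coactivator that switches class II genes on, was 4.10-fold higher. Of 11 measured genes of class II presentation, these 5 passed and 0 were lower, beside 0.677% higher and 0.155% lower of all genes. All 11 had a positive difference, beside 45.2% of all genes, and their median log2 difference was 1.10 beside -0.01 for all genes. *H2-Aa* (probe set 10450154) had log2 signals of 11.54, 11.63, 11.26 and 12.08 in WT CDPs, against 6.83, 6.99, 5.53 and 7.26 in WT MDPs (difference 4.98, standard error 0.33, adjusted p = 1.03e-04). *H2-Eb1* had 10.17, 10.32, 9.91 and 11.03 in WT CDPs and 5.51, 5.53, 5.04 and 5.65 in WT MDPs (difference 4.93, standard error 0.30, adjusted p = 5.69e-05). The lowest CDP array thus stood at least 4 log2 units above the highest MDP array for both genes. *Cd74* (probe set 10456005) had 10.97, 11.11, 11.07 and 11.92 in WT CDPs and 6.70, 6.95, 6.37 and 7.73 in WT MDPs (difference 4.33, standard error 0.30, adjusted p = 1.34e-04). *Ciita* had 6.51, 6.74, 6.80 and 7.91 in WT CDPs and 4.81, 4.78, 5.20 and 5.03 in WT MDPs (difference 2.03, standard error 0.24, adjusted p = 0.00328). For both genes GSI-treated CDP replicate 2 was the highest array, and the populations did not overlap.

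The other members of the class II list moved less. *H2-Oa* and *H2-Ob*, whose products inhibit peptide exchange, had differences of 1.10 (adjusted p = 0.179) and 0.88 (adjusted p = 0.189), *H2-DMa*, a chain of the peptide exchange factor, had 0.79 (adjusted p = 0.0551), and *H2-Eb2* had 0.30 (adjusted p = 0.766). The cathepsin gene *Ctss* and the thiol reductase gene *Ifi30*, which act in the same compartment, had 0.49 and 0.68 (adjusted p = 0.234 and 0.163). *Lgmn*, the lysosomal endopeptidase legumain, rose 4.39-fold, with 8.37, 7.06, 8.49 and 7.76 in WT CDPs and 5.83, 5.99, 5.26 and 6.06 in WT MDPs (adjusted p = 0.0124). It was the only member of 20 measured lysosome genes that passed, and their median difference was -0.01. The difference in *H2-Aa* was 5.22 within the replicate 1 arrays and 4.74 within the replicate 2 arrays, and that in *Ciita* was 1.65 and 2.42. The calls of the 4 class II genes and of *Ciita* held without any 1 of the 16 arrays (highest adjusted p 0.00163 for the 4 genes and 0.0223 for *Ciita*). That of *Lgmn* was lost without MDP replicate 1 with vehicle (adjusted p = 0.0557) or GSI (0.0625) or vehicle-treated MDP replicate 2 (0.0526).

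**Figure D1:**
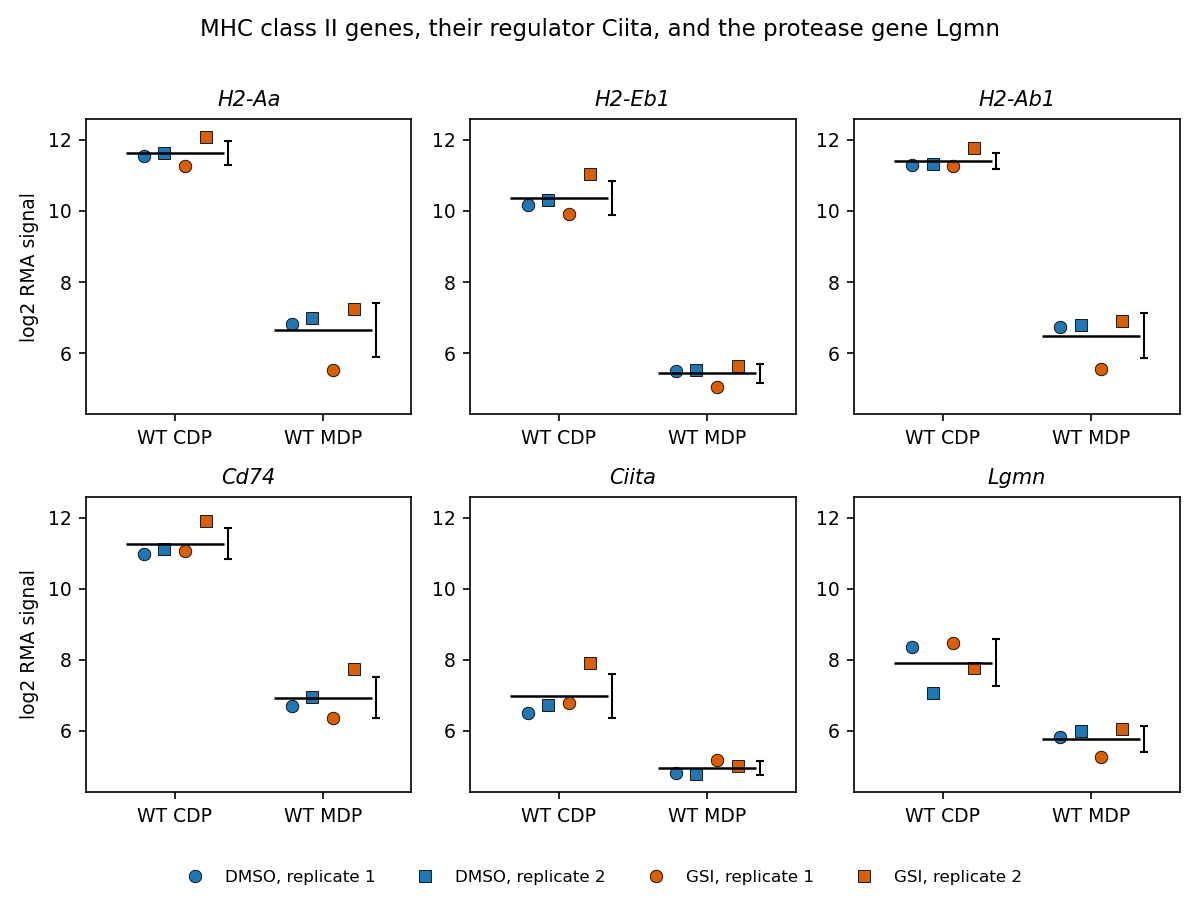
Log2 RMA signal of *H2-Aa*, *H2-Eb1*, *H2-Ab1*, *Cd74*, *Ciita* and *Lgmn* in each of the 4 WT CDP arrays (left) and 4 WT MDP arrays (right), coloured by treatment and shaped by replicate, with bars at the means and whiskers of 1 SD. In all 6 genes every CDP array lies above every MDP array, and the gap is widest for the 4 class II genes.

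Class II genes share a promoter design in which a Y box, a CCAAT sequence on the opposite strand, lies shortly before the start and binds NF-Y. The promoters of 2 genes that rose about 30-fold, *H2-Aa* and *H2-Eb1*, are shown with those of *H2-Oa* and *H2-Ob*, which did not pass. They are RefSeq sequences of mouse build GRCm38.p6 over positions -120 to -21 from the start, on the strand of the gene, with each CCAAT or its reverse complement in capitals. They lie at chr17:34287844-34287943 (minus strand), chr17:34305747-34305846 (plus), chr17:34092259-34092358 (plus) and chr17:34238785-34238884 (plus).
H2-Aa: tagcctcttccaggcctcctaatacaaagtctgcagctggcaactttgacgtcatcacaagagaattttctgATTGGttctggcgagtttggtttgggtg
H2-Eb1: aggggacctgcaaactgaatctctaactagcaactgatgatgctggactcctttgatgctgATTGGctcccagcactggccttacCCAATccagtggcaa
H2-Oa: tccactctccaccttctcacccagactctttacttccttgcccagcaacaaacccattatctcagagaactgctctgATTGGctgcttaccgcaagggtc
H2-Ob: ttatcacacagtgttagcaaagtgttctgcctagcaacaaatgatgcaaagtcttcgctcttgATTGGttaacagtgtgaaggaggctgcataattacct
The opposite-strand motif ended at position -44 in *H2-Aa*, -55 in *H2-Eb1*, -39 in *H2-Oa* and -53 in *H2-Ob*, and *H2-Eb1* held another copy on its own strand. The motif therefore stood in genes that rose and in genes that did not pass. Of the 11 class II genes 8 had a RefSeq promoter here, and 6 of their 9 promoters held CCAAT on either strand in the 250 bases before and 50 after the start. That was 66.7% of these promoters, beside 37.4% of all 32851 promoters and 36.4% of the 129 promoters of genes that rose. A match is a description of these letters and not a binding site.

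Genes of cDCs and their precursors rose with the class II genes. Of 41 measured genes of cDCs and pre-cDCs, 9 were higher in WT CDPs and 0 lower, beside 0.677% and 0.155% of all genes. Their median difference was 0.45. At an unadjusted p under 0.05 by limma 22 were higher and 1 lower. In 15 every CDP array was above every MDP array, beside 2.4% of all genes. The largest was *Cd209a*, a C-type lectin of DCs, at 15.9-fold. It had 8.95, 8.87, 8.95 and 9.93 in WT CDPs and 5.41, 5.48, 5.32 and 4.54 in WT MDPs (difference 3.99, standard error 0.28, adjusted p = 1.34e-04). *Slamf7*, a receptor of the SLAM family, was 12.2-fold higher, with 9.002, 7.84, 8.62 and 8.63 in WT CDPs and 5.93, 4.82, 4.46 and 4.45 in WT MDPs (adjusted p = 5.03e-04). *Itgax*, which encodes the DC integrin CD11c, was 8.35-fold higher, with 7.67, 8.002, 7.20 and 8.53 in WT CDPs and 4.94, 5.03, 4.52 and 4.67 in WT MDPs (adjusted p = 0.00152). In each of these genes all 4 CDP arrays exceeded all 4 MDP arrays by more than 1 log2 unit. *Anpep*, the aminopeptidase CD13, rose 7.53-fold (adjusted p = 0.00272), and *Kmo*, an enzyme of tryptophan breakdown, rose 6.49-fold (adjusted p = 0.0189). *Ifi205*, an interferon-inducible gene also found in cDC1s, rose 5.84-fold and was highest in vehicle-treated CDP replicate 2, at 8.65 beside 5.23 to 6.72 in the other CDP arrays (adjusted p = 0.0441). *Flt3* itself was 3.78-fold higher, with 8.16, 8.56, 7.71 and 9.13 in WT CDPs and 6.57, 6.57, 6.39 and 6.36 in WT MDPs (adjusted p = 0.0206). The other members that passed were *Id2* and *Cadm1*, an adhesion molecule of cDC1s that was picked with its values known (difference 1.27, adjusted p = 0.00514).

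Most members of the cDC list did not pass, among them receptors of mature cDC subsets. *Xcr1* and *Clec9a* of cDC1s had differences of 0.06 and 0.88 (adjusted p = 0.946 and 0.450), and *Clec10a* and *Mgl2* of cDC2s had -0.06 and -1.30 (adjusted p = 0.981 and 0.324). *Zbtb46*, a transcription factor of committed cDCs, stayed near the low end of the scale, at 4.65, 4.71, 4.76 and 5.36 in WT CDPs and 4.49, 4.26, 4.59 and 4.32 in WT MDPs (adjusted p = 0.467). These genes were chosen from the list after their values were seen. The calls of *Cd209a*, *Slamf7*, *Itgax*, *Anpep* and *Cadm1* held without any 1 of the 16 arrays, while *Kmo*, *Flt3* and *Ifi205* kept theirs without 12, 11 and 4 of them. Their highest adjusted p were 0.0713 (without GSI-treated CDP replicate 2), 0.0866 (without vehicle-treated MDP replicate 2) and 0.136 (without GSI-treated MDP replicate 1).

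Genes of pDCs rose as well. Of 30 measured members 7 passed as higher and 0 as lower, beside 0.677% and 0.155% of all genes, with a median difference of 0.40. *Siglech*, the lectin receptor that marks pDCs and some of their precursors, was 5.32-fold higher, with 7.50, 7.57, 7.01 and 8.03 in WT CDPs and 5.73, 5.14, 4.86 and 4.75 in WT MDPs (difference 2.41, standard error 0.21, adjusted p = 6.84e-04). *Cd7*, a surface glycoprotein, was 7.83-fold higher, with 6.86, 7.62, 6.76 and 8.93 in WT CDPs and 4.69, 4.24, 4.65 and 4.72 in WT MDPs (adjusted p = 0.0142). For both genes the populations were separate and GSI-treated CDP replicate 2 was the highest array. *Cd209d*, another C-type lectin, and *Il7r*, the interleukin-7 receptor of lymphoid progenitors, rose 5.24-fold and 4.72-fold (adjusted p = 0.00149 and 0.00328). *Ccr9*, the chemokine receptor of mature pDCs, rose by a smaller amount at a low level, with 4.57, 4.70, 4.46 and 4.85 in WT CDPs and 4.004, 3.74, 3.80 and 3.53 in WT MDPs (difference 0.88, adjusted p = 0.00519). The remaining members were *Tcf4* and *Blnk*, a B cell adaptor also expressed in pDCs that was named after its values were seen (difference 0.53, adjusted p = 0.0343). The call of *Blnk* held without 2 of the 16 arrays (highest adjusted p 0.133, without vehicle-treated MDP replicate 2). *Ly6d*, a marker of lymphoid and pDC progenitors also named in this way, had 6.69, 8.15, 6.26 and 8.79 in WT CDPs and 5.51, 5.34, 5.54 and 5.40 in WT MDPs, and did not pass (difference 2.03, adjusted p = 0.0873). In CDPs its replicate 2 arrays were more than 1 log2 unit above its replicate 1 arrays. The calls of *Siglech*, *Cd209d*, *Il7r* and *Ccr9* held without any 1 of the 16 arrays, and that of *Cd7* was lost without GSI-treated MDP replicate 1 (adjusted p = 0.0655) or vehicle-treated MDP replicate 2 (0.0686).

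**Figure D2:**
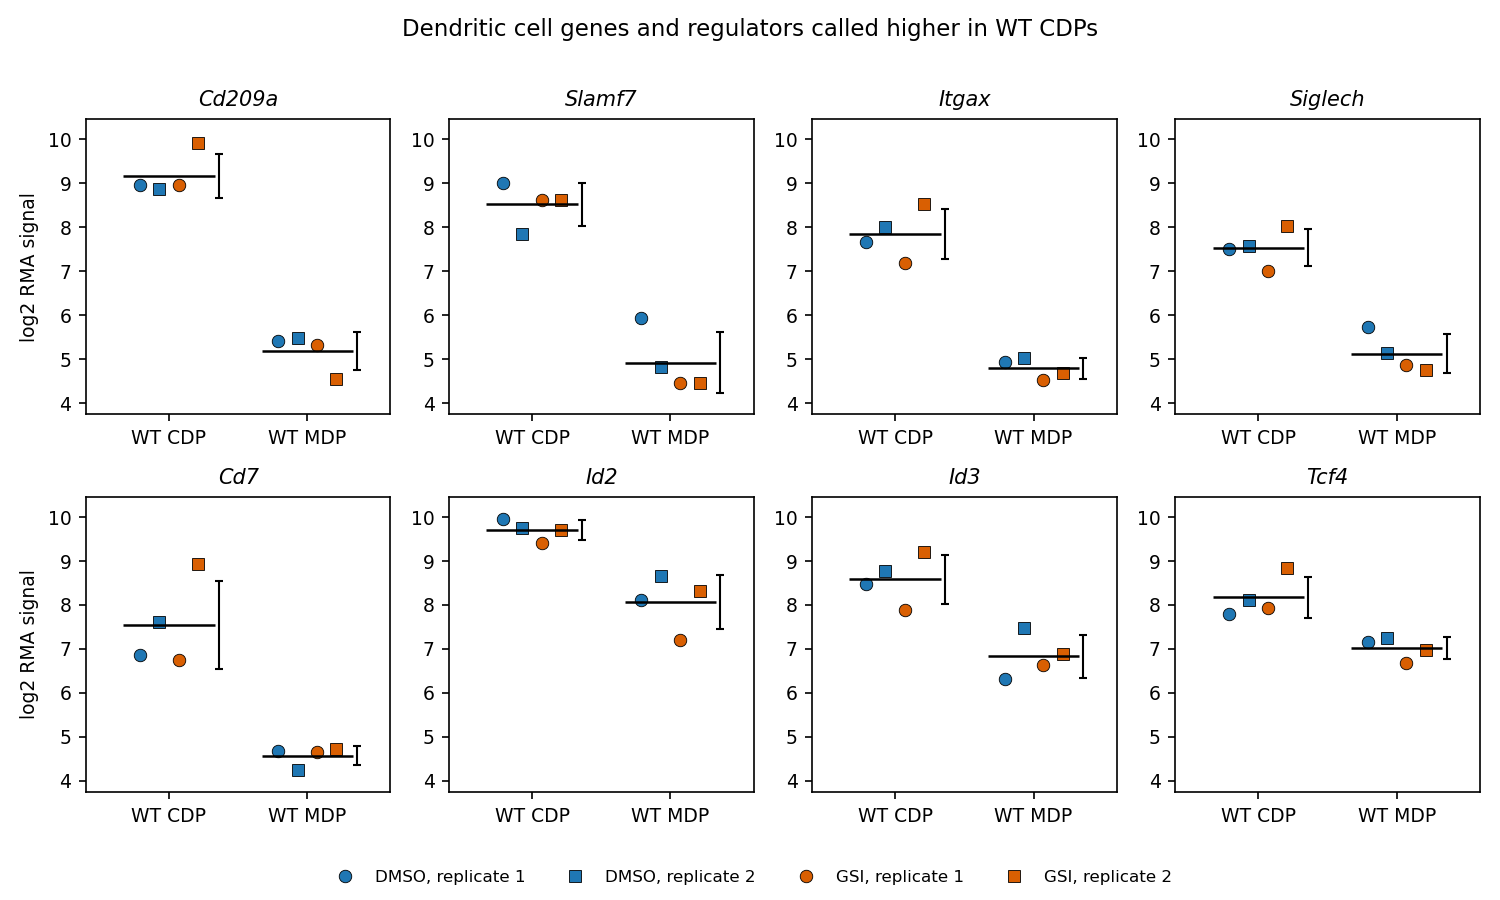
Log2 RMA signal of 8 genes that were higher in WT CDPs, in each of the 4 WT CDP arrays (left) and 4 WT MDP arrays (right), with bars at the means and whiskers of 1 SD. *Cd209a*, *Slamf7*, *Itgax*, *Siglech* and *Cd7* are members of the cDC or pDC lists. *Id2*, *Id3* and *Tcf4* are transcription regulators, in which the gap between populations is smaller (differences of 1.64, 1.76 and 1.16).

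Among transcription factors of the DC lineage the median difference was 0.14. In WT CDPs 4 of 38 measured genes were higher and 0 were lower, beside 0.677% and 0.155% of all genes. Beside *Ciita* the higher genes were regulators of both DC branches. *Id2*, the inhibitor of E proteins that favours cDCs, was 3.12-fold higher, with 9.96, 9.74, 9.42 and 9.71 in WT CDPs and 8.10, 8.66, 7.20 and 8.32 in WT MDPs (adjusted p = 0.0187). *Id3*, its relative, was 3.38-fold higher, with 8.48, 8.76, 7.89 and 9.21 in WT CDPs and 6.32, 7.47, 6.64 and 6.89 in WT MDPs (adjusted p = 0.0227). *Tcf4*, which encodes the E protein E2-2 that directs pDC fate, was 2.23-fold higher, with 7.80, 8.12, 7.94 and 8.84 in WT CDPs and 7.15, 7.26, 6.67 and 6.99 in WT MDPs (adjusted p = 0.0441). The populations did not overlap in any of the 3 genes, although the closest arrays of *Id3* lay less than 0.5 log2 units apart. *Irf4*, a factor of cDC2s, had 6.48, 5.73, 7.47 and 7.98 in WT CDPs and 4.06, 4.36, 4.97 and 5.76 in WT MDPs, and did not pass (difference 2.13, adjusted p = 0.0534). *Spib* and *Irf7*, which act in pDCs, had differences of 1.55 and 1.36 (adjusted p = 0.0970 and 0.102), with separate populations for both. *Spi1*, which encodes PU.1, was near 10 in every array (difference 0.14, adjusted p = 0.771). *Irf8*, required for CDPs, had 8.37, 8.69, 7.67 and 8.40 in WT CDPs and 8.99, 9.34, 8.14 and 8.57 in WT MDPs (difference -0.48, adjusted p = 0.354), and the populations overlapped. *Batf3* and *Zbtb46* of cDCs had differences of 0.26 and 0.45, and *Ikzf1*, which encodes Ikaros, had -0.10 (adjusted p = 0.667, 0.467 and 0.866). The calls of *Id2* and *Id3* held without 12 and 11 of the 16 arrays (highest adjusted p 0.0777, without vehicle-treated CDP replicate 1, and 0.102, without GSI-treated MDP replicate 1). That of *Tcf4* held only without GSI-treated CDP replicate 1 (highest adjusted p 0.158, without GSI-treated MDP replicate 1).

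Receptors for growth factors and cytokines gave 3 calls. Of 28 measured genes, *Flt3*, *Il7r* and *Il13ra1* passed as higher and 0 as lower, beside 0.677% and 0.155% of all genes. At an unadjusted p under 0.05 by limma 12 were higher and 1 lower. In 6 every CDP array was above every MDP array, beside 2.4% of all genes, and the median difference was 0.13. *Il13ra1*, a chain of the interleukin-13 receptor, had 7.96, 6.91, 7.07 and 6.79 in WT CDPs and 5.70, 5.70, 5.08 and 6.29 in WT MDPs (difference 1.49, adjusted p = 0.0378, lost without 14 of the 16 arrays, with a highest adjusted p of 0.126 without vehicle-treated MDP replicate 2). Picked with their values known, *Csf2ra* and *Csf2rb* of the GM-CSF receptor had differences of -0.14 and 0.38, and *Csf3r* of the G-CSF receptor had -0.51 (adjusted p = 0.873, 0.381 and 0.833). Among 15 measured Toll-like receptor genes, *Cd180*, a homologue that tunes TLR4, was 2.00-fold higher with a narrow spread, at 10.75, 10.66, 10.36 and 10.81 in WT CDPs and 9.76, 9.44, 9.66 and 9.73 in WT MDPs (standard error 0.13, adjusted p = 0.00522). It was the only member that passed. Other large rises, outside these lists, were those of *Dab2*, an endocytic adaptor (11.1-fold, adjusted p = 0.00149), *P2ry10*, a receptor for lysophosphatidylserine (8.60-fold, adjusted p = 0.00732), and *Clec4n*, which encodes the fungal receptor Dectin-2 (8.02-fold, adjusted p = 0.00152). The populations were separate in each. *Dab2* was higher in GSI-treated CDPs (8.57 and 9.39) than in vehicle-treated CDPs (7.50 and 7.48).

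Most genes of mature, migrating DCs had positive differences. Of 29 measured members *Ccl22* and *Ccl5* passed as higher and 0 as lower, beside 0.677% and 0.155% of all genes. A positive difference was found in 25, beside 45.2% of all genes. In 11 all 4 CDP arrays were above all 4 MDP arrays, beside 2.4% of all genes, and the median difference was 0.52. The chemokine gene *Ccl22* had 6.62, 6.19, 5.26 and 5.82 in WT CDPs and 4.20, 4.35, 4.91 and 4.53 in WT MDPs (difference 1.47, adjusted p = 0.0119). In *Ccl5* the populations overlapped, with 7.66, 8.77, 7.26 and 8.25 in WT CDPs and 7.28, 6.60, 6.30 and 6.23 in WT MDPs (difference 1.39, adjusted p = 0.0482). *Ccr7*, the chemokine receptor of migrating DCs, had a difference of 1.15 (adjusted p = 0.280), and the actin-bundling gene *Fscn1* had 0.54 (adjusted p = 0.456). The call of *Ccl22* was lost without vehicle-treated MDP replicate 1 (adjusted p = 0.0524), and that of *Ccl5* without 14 of the 16 arrays (highest adjusted p 0.169, without vehicle-treated MDP replicate 2).

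Of 24 measured interferon response genes 5 were higher and 0 lower, beside 0.677% and 0.155% of all genes, with a median of 0.57. *Rtp4*, an interferon-induced chaperone, was 7.001-fold higher, with 8.22, 8.58, 6.81 and 7.47 in WT CDPs and 5.76, 5.01, 4.69 and 4.38 in WT MDPs (adjusted p = 0.0122). *Ddx58*, which encodes the RNA sensor RIG-I, *Usp18*, which restrains interferon signaling, *Oasl2* and *Xaf1* rose between 1.91-fold and 2.51-fold. *Ifit1*, *Oas2* and *Mx1*, other targets chosen after their values were seen, did not pass (differences 1.204, 0.79 and 0.17, adjusted p = 0.318, 0.564 and 0.808). Of 17 measured stress and immediate early genes, *Jun*, *Egr2* and *Dusp1* were higher and 0 lower, with a median of 0.45. *Jun*, a subunit of AP-1, had 8.11, 7.36, 7.72 and 7.90 in WT CDPs and 6.02, 6.16, 6.24 and 6.56 in WT MDPs (difference 1.53, standard error 0.15, adjusted p = 0.00149). The heat shock genes *Hspa8* and *Hspa1a*, also picked with their values known, had differences of -0.02 and 0.10. *Jun* and *Dusp1* kept their calls without any 1 of the 16 arrays. The 5 interferon response calls were 0 without vehicle-treated MDP replicate 2 and 6 without GSI-treated CDP replicate 1.

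**Figure D3:**
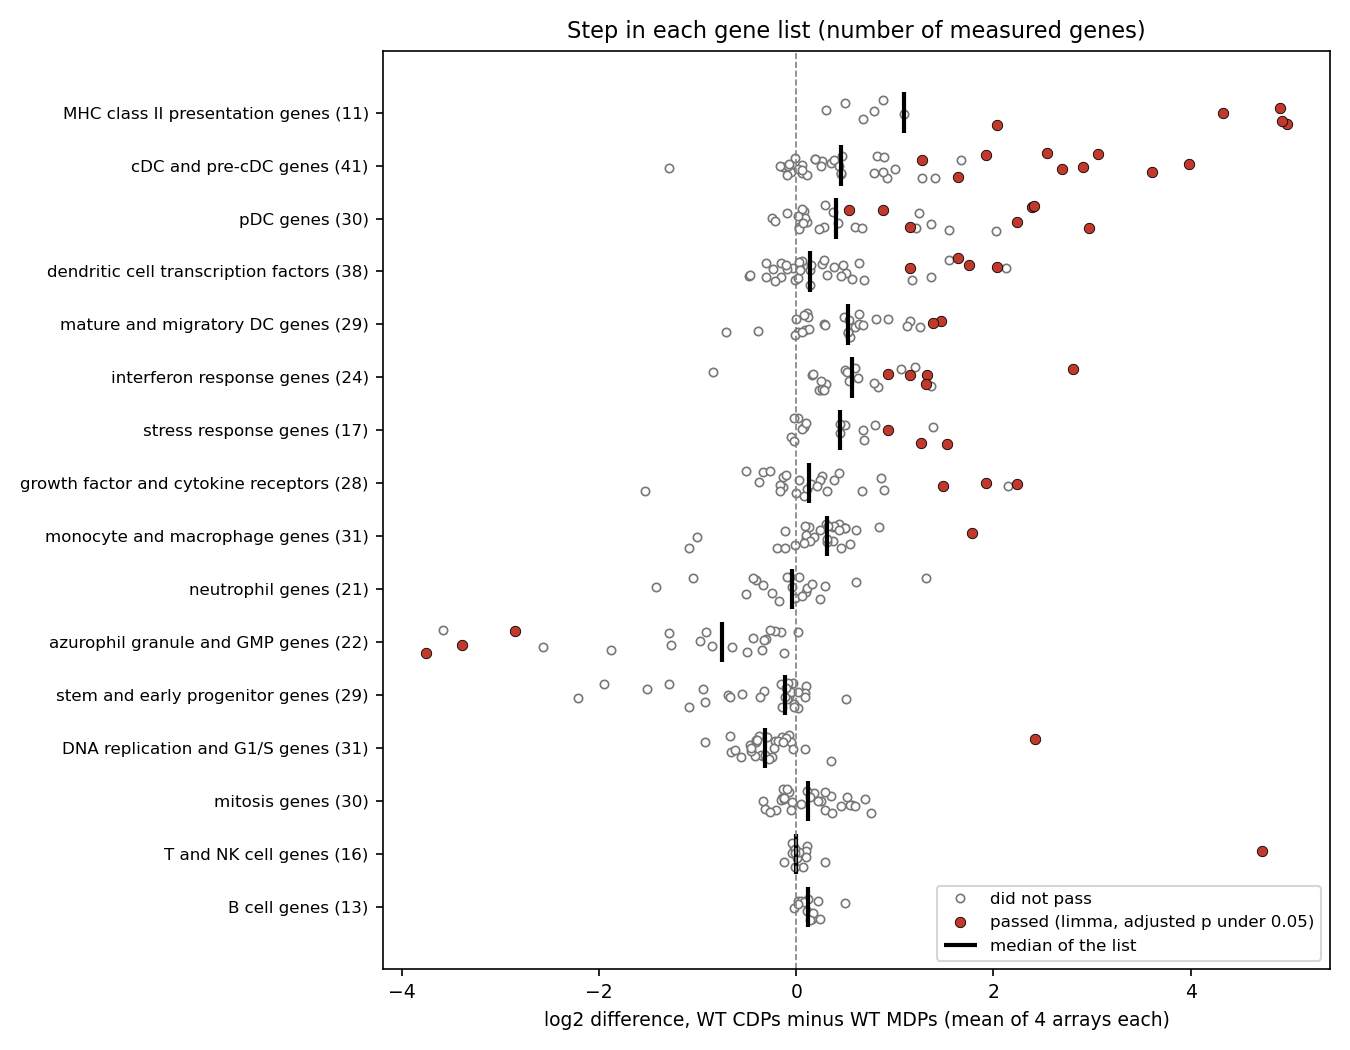
Log2 difference between WT CDPs and WT MDPs for every measured gene of 16 lists, with genes that passed limma's test in red and a black bar at each median. The MHC class II list has the highest median (1.10) and the azurophil granule list the lowest (-0.75), and the T and NK cell list holds a single gene far from 0, *Klrd1*.

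Genes of the myeloid granules were the largest falls. Azurophil granules are made by granulocyte-monocyte progenitors and store the proteases and peroxidase that neutrophils use on microbes. Of 22 measured genes of these granules and progenitors, 3 were lower in WT CDPs and 0 higher, beside 0.155% and 0.677% of all genes. A negative difference was found in 21, and the median was -0.75. *Elane* (probe set 10364535), neutrophil elastase, was 13.49-fold lower, with 6.14, 9.60, 6.38 and 5.20 in WT CDPs and 10.78, 10.53, 10.65 and 10.38 in WT MDPs (difference -3.75, standard error 0.62, adjusted p = 0.0206). *Mpo* (probe set 10380174), myeloperoxidase, was 10.5-fold lower, with 7.85, 11.67, 8.17 and 7.28 in WT CDPs and 12.21, 12.26, 12.08 and 11.98 in WT MDPs (difference -3.39, standard error 0.64, adjusted p = 0.0421). *Ctsg*, cathepsin G, was 7.22-fold lower, with 7.37, 10.69, 7.75 and 7.77 in WT CDPs and 11.30, 11.30, 11.12 and 11.26 in WT MDPs (difference -2.85, standard error 0.55, adjusted p = 0.0451). Vehicle-treated CDP replicate 2 stood apart in all 3 genes, within 1 log2 unit of the lowest MDP array, while the other CDP arrays lay 3 or more units below them. *Ms4a3* and *Prtn3*, proteinase 3, were also highest among CDP arrays in vehicle-treated replicate 2 and were named after their values were seen. *Ms4a3* had 5.34, 9.42, 6.30 and 4.88 in WT CDPs and 9.91, 9.86, 10.24 and 10.28 in WT MDPs (difference -3.59, adjusted p = 0.0664). *Prtn3* had 6.82, 10.08, 7.17 and 7.97 in WT CDPs and 10.38, 10.89, 10.32 and 10.72 in WT MDPs (difference -2.57, adjusted p = 0.0695). Neither passed, although every CDP array was below every MDP array.

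The mean signal of the 22 genes was 7.76, 8.73, 7.84 and 7.38 in the WT CDP arrays and 9.18, 9.10, 9.16 and 9.12 in the WT MDP arrays, so the spread of the list lay in the CDPs. Without vehicle-treated CDP replicate 2 the differences were -4.62 for *Elane* (adjusted p = 3.79e-04), -4.35 for *Mpo* (adjusted p = 1.63e-04) and -3.68 for *Ctsg* (adjusted p = 1.52e-04), and 6 genes of the list passed as lower. Without GSI-treated CDP replicate 2, the lowest array for *Elane* and *Mpo*, the adjusted p were 0.0791, 0.127 and 0.124. The calls of *Elane*, *Mpo* and *Ctsg* held without 12, 3 and 2 of the 16 arrays. With the 8 WT arrays alone 1 gene passed as lower over all genes tested, against 31 in the main fit. The difference in *Elane* was -4.46 within the replicate 1 arrays and -3.05 within the replicate 2 arrays. That in *Mpo* was -4.14 and -2.64, and that in *Ctsg* was -3.65 and -2.06. Genes of later neutrophils gave no calls. Of 21 measured members 0 passed in either direction (2 were lower and 0 higher at an unadjusted p under 0.05), with a median of -0.05. *S100a8* and *S100a9*, named after their values were seen, had differences of -0.44 and -0.18 (adjusted p = 0.444 and 0.866). *Chil3* had 10.18, 10.28, 10.36 and 6.10 in WT CDPs and 10.64, 11.02, 10.27 and 10.66 in WT MDPs, so that its difference of -1.42 (adjusted p = 0.578) lay in GSI-treated CDP replicate 2 and was -0.36 without that array.

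**Figure D4:**
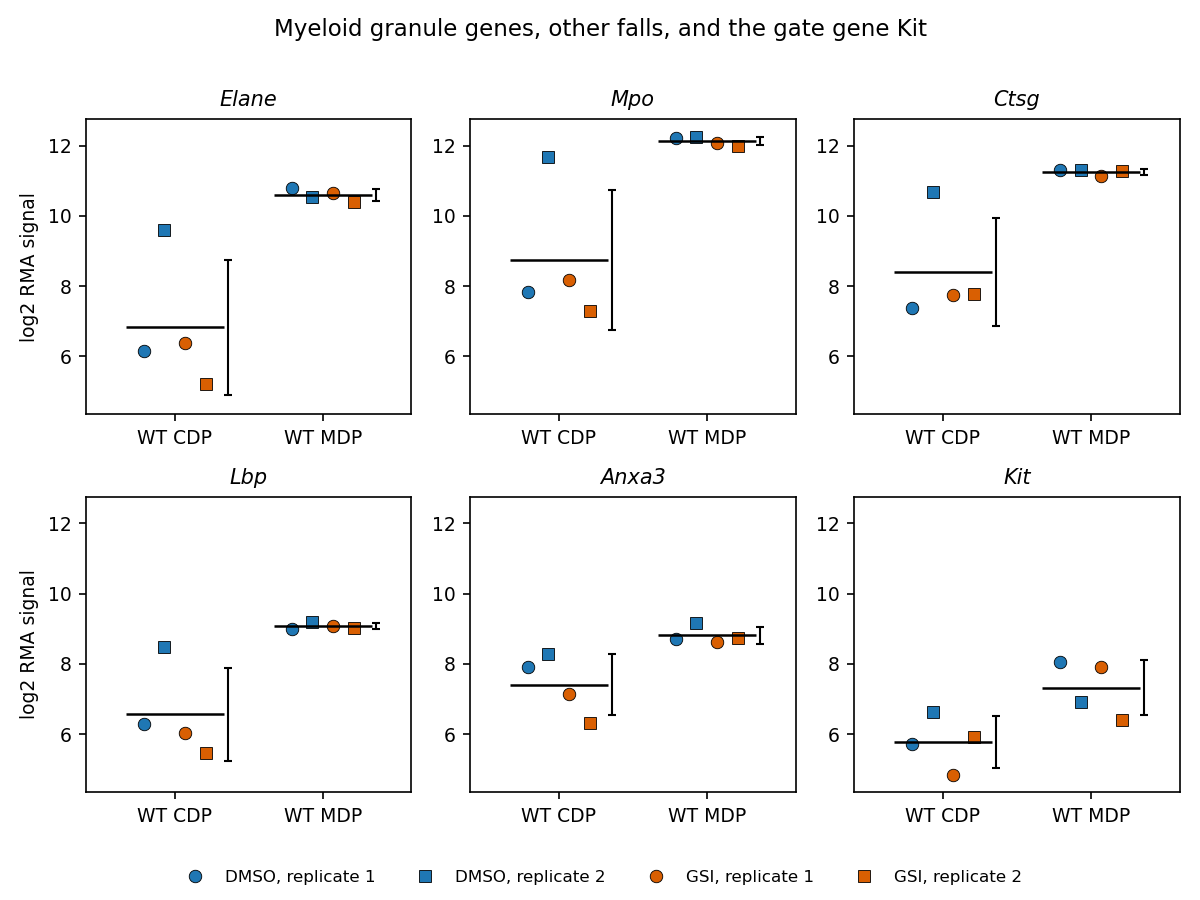
Log2 RMA signal of *Elane*, *Mpo*, *Ctsg*, *Lbp*, *Anxa3* and *Kit* in each of the 4 WT CDP arrays (left) and 4 WT MDP arrays (right), with bars at the means and whiskers of 1 SD. Vehicle-treated CDP replicate 2 is close to the MDP arrays for *Elane*, *Mpo*, *Ctsg* and *Lbp*, and the replicate 1 arrays of MDPs are the highest for *Kit*.

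The promoters of granule protease genes are bound by PU.1, whose core site GAGGAAGT was looked for on both strands in RefSeq promoters (GRCm38.p6). It was found in those of *Elane*, *Prtn3* and *Mpo* among 23 promoters of 18 genes of the list, and in 3.20% of all promoters. The windows that hold it are shown with the motif in capitals, on the plus strand, at chr10:79886192-79886291, chr10:79879547-79879646 and chr11:87793534-87793633.
Elane: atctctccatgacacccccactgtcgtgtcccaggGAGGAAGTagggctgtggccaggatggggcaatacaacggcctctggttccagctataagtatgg
Prtn3: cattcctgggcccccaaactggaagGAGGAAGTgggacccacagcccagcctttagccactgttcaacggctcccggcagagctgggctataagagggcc
Mpo: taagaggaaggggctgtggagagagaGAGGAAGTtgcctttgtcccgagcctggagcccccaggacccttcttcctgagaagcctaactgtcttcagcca
The motif began at position -85 in *Elane*, -95 in *Prtn3* and -224 in *Mpo*, counted from the start. The same letters were found in 10 of the 129 promoters of genes that rose (7.75%) and in 2 of the 24 of genes that fell (8.33%), with similar shares in both directions.

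Other genes that fell had smaller differences and, in part, tighter arrays. *Lbp*, the lipopolysaccharide-binding protein, was 5.69-fold lower, with 6.28, 8.48, 6.04 and 5.47 in WT CDPs and 9.004, 9.19, 9.09 and 9.03 in WT MDPs (adjusted p = 0.0343). Its pattern over the arrays was that of the granule genes. *Anxa3*, annexin A3, was 2.64-fold lower, with 7.90, 8.29, 7.15 and 6.31 in WT CDPs and 8.71, 9.18, 8.63 and 8.74 in WT MDPs (difference -1.40, standard error 0.19, adjusted p = 0.00916). *Gpr160*, an orphan receptor gene, had 6.201, 6.67, 6.52 and 6.09 in WT CDPs and 7.28, 7.42, 7.13 and 7.20 in WT MDPs (difference -0.89, adjusted p = 0.0142). *Thra*, the thyroid hormone receptor alpha, had 5.52, 5.39, 5.16 and 5.43 in WT CDPs and 6.12, 6.32, 6.13 and 6.34 in WT MDPs (difference -0.85, adjusted p = 0.0218). In these 4 genes every CDP array was below every MDP array. The others among the 12 largest falls without overlap of the populations were *Rnf125*, a ubiquitin ligase, *Rab44*, a small GTPase, *Bmx*, a tyrosine kinase of the Tec family, *Tm7sf3* and *1700012B09Rik*, with differences between -1.05 and -0.95. *Pdcd4*, an inhibitor of translation, and *Atp11a*, a lipid flippase, also passed, with differences of -1.32 and -0.90 (adjusted p = 0.0422 and 0.0470), and the populations overlapped in both. *Anxa3* and *1700012B09Rik* kept their calls without any 1 of the 16 arrays, *Gpr160* without 13, *Thra* without 10 and *Lbp* without 6 (highest adjusted p 0.0676, 0.101 and 0.126, each without vehicle-treated MDP replicate 2).

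Genes of stem and early progenitor cells gave no calls. Of 29 measured members 0 passed, with a median of -0.12. At an unadjusted p under 0.05 by limma 9 were lower and 0 higher, beside 1901 of 19938 genes over both directions. In 4 every CDP array was below every MDP array, beside 2.08% of all genes, and in 0 above. A positive difference was found in 6, beside 45.2% of all genes. The largest differences were those of *Muc13*, a mucin of progenitors, and *Adgrg1*, an adhesion receptor of stem cells. *Muc13* had 4.06, 5.59, 4.45 and 4.47 in WT CDPs and 8.13, 6.19, 7.28 and 5.84 in WT MDPs (difference -2.21, adjusted p = 0.144). *Adgrg1* had 5.55, 6.18, 5.17 and 5.53 in WT CDPs and 8.76, 6.68, 8.60 and 6.17 in WT MDPs (difference -1.95, adjusted p = 0.246). In MDPs the replicate 1 arrays were higher than the replicate 2 arrays for both genes, as they were for *Kit*. The difference in *Adgrg1* was -3.33 within the replicate 1 arrays and -0.57 within the replicate 2 arrays, and that in *Kit* was -2.69 and -0.39. *Cd34*, a marker of progenitors named after its values were seen, had a difference of -0.14 (adjusted p = 0.946).

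Cell cycle genes gave 1 call. *Ccnd1*, which encodes cyclin D1, was 5.35-fold higher, with 9.30, 9.96, 8.84 and 10.46 in WT CDPs and 6.80, 7.84, 6.97 and 7.26 in WT MDPs (difference 2.42, standard error 0.36, adjusted p = 0.0142). All CDP arrays were above all MDP arrays. It was the only one of 31 measured genes of G1/S and DNA replication that passed, and 28 of the 31 had a negative difference, with a median of -0.31. The other D cyclins, *Ccnd2* and *Ccnd3*, had differences of 0.36 and -0.07 (adjusted p = 0.866 and 0.955), and *Cdk6*, their partner kinase, had -0.92 (adjusted p = 0.109). These were chosen after their values were seen. Of 30 measured mitosis genes 0 passed (4 were higher and 1 lower at an unadjusted p under 0.05), with a median of 0.12 that ran between -0.06 and 0.28 with each array left out. The largest difference was that of *Prc1*, a gene of the mitotic spindle, at 0.76 (adjusted p = 0.528). The 28 measured ribosome biogenesis genes, 13 cell cycle inhibitors, 18 genes of protein folding in the endoplasmic reticulum, 13 genes of cholesterol synthesis and 16 Notch receptors and targets had 0 calls, with medians between -0.15 and 0.06. *Rbpj*, the transcriptional mediator of Notch, had the largest difference of the Notch list (0.51, adjusted p = 0.0955). The call of *Ccnd1* was lost without MDP replicate 1 with vehicle (adjusted p = 0.0580) or GSI (0.0682).

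Markers of other lineages gave few calls. *Klrd1*, which encodes the NK cell receptor chain CD94, was 26.4-fold higher, with 8.97, 9.72, 8.09 and 9.96 in WT CDPs and 4.86, 4.63, 4.29 and 4.09 in WT MDPs (difference 4.72, standard error 0.44, adjusted p = 0.00131). The call held without any 1 of the 16 arrays, and no CDP array came within 3 log2 units of an MDP array. Among receptor genes of NK cells outside the list, picked with their values known, *Klrb1b* and *Klrk1*, which encodes NKG2D, also passed. *Klrb1b* had 7.09, 7.47, 7.16 and 8.77 in WT CDPs and 4.64, 4.89, 5.04 and 4.69 in WT MDPs (difference 2.81, adjusted p = 0.0175, held without 11 of the 16 arrays). *Klrk1* had 6.55, 7.22, 5.37 and 6.60 in WT CDPs and 4.71, 4.82, 4.29 and 4.28 in WT MDPs (difference 1.91, adjusted p = 0.00916, held without any 1 of the 16 arrays). No other member of the list passed. *Ncr1*, *Klrb1c*, *Prf1*, *Gzma* and *Eomes*, chosen after their values were seen, had differences between -0.04 and 0.10. The mean signal of the 16 measured T and NK cell genes was 4.17 to 4.46 in WT CDP arrays and 3.95 to 4.04 in WT MDP arrays. The 13 measured B cell genes gave 0 calls and had means of 4.48 to 4.86 in WT CDP arrays and 4.54 to 4.59 in WT MDP arrays. The 13 genes of erythroid cells and megakaryocytes and the 19 of mast cells, basophils and eosinophils also gave 0 calls. *Pf4* of megakaryocytes and *Cpa3* of mast cells were raised in the MDP arrays of replicate 1, at 7.28 and 5.88 and at 7.79 and 7.17, beside 4.29 to 5.13 and 4.32 to 5.48 in the other WT arrays.

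Monocyte and macrophage genes gave 1 call among 31 as higher and 0 as lower, beside 0.677% and 0.155% of all genes. Positive differences were found in 25, beside 45.2% of all genes, and the median was 0.31. At an unadjusted p under 0.05 by limma 7 were higher and 1 lower. In 3 every CDP array was above every MDP array and in 2 below, beside 2.4% and 2.08% of all genes. The call was that of *Mrc1*, the mannose receptor, with 4.60, 4.91, 8.13 and 7.55 in WT CDPs and 4.30, 4.31, 4.41 and 5.03 in WT MDPs (difference 1.79, adjusted p = 0.0100). Its vehicle-treated CDP arrays overlapped the MDP arrays and only the GSI-treated CDP arrays stood above them. The mean signal of the list was 8.41, 7.78, 8.29 and 7.22 in WT CDP arrays and 7.76, 7.79, 7.50 and 7.69 in WT MDP arrays. Its median difference was 0.63 within the replicate 1 arrays and -0.14 within the replicate 2 arrays, and the part of these genes in the other results was not tested. *Adgre1*, *Cd14*, *Lyz2* and *Ccr2*, markers of the lineage chosen after their values were seen, had differences of 0.38, 0.37, -0.12 and 0.18 (adjusted p between 0.598 and 0.948). In *F13a1* and the Fc receptor gene *Fcgr3* every CDP array was below every MDP array (differences -1.01 and -1.09, adjusted p = 0.440 and 0.548), and GSI-treated CDP replicate 2 was the lowest array of both, at 8.76 and 7.21. In *Cd68*, a lysosomal marker of macrophages, every CDP array was above every MDP array (difference 0.60, adjusted p = 0.123).

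Whether the step depended on the treatment was tested as an interaction. The difference between WT CDPs and WT MDPs did not change with GSI for any gene at an adjusted p under 0.05 (0 genes by limma, 479 at an unadjusted p under 0.05, smallest adjusted p 1.00). Within GSI-treated arrays alone 33 genes were higher and 2 lower, and within vehicle-treated arrays alone 19 were higher and 0 lower. The differences in these sets rest on different arrays, but their p-values share 1 estimate of the spread. All 19 genes called with vehicle had the same sign with GSI, 12 of them passed there and 18 had an unadjusted p under 0.05. Of the genes called with GSI 34 had the same sign with vehicle and 33 an unadjusted p under 0.05. *H2-Aa* differed by 5.28 with GSI and 4.67 with vehicle, and *Siglech* by 2.72 and 2.10. Among the 166 called genes the steps were most unequal for *Mrc1* and *Elane*. Examples are *Mrc1* (3.12 with GSI and 0.45 with vehicle), *Elane* (-4.72 and -2.78), *Dab2* (4.31 and 2.63), *Cd209d* (3.17 and 1.61), *Anxa3* (-1.95 and -0.85) and *Ccl22* (0.82 and 2.13), chosen after their values were seen, and none of them passed the test of the difference. With 2 arrays per group, even the gap of *Mrc1* did not pass over all genes tested.

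**Figure D5:**
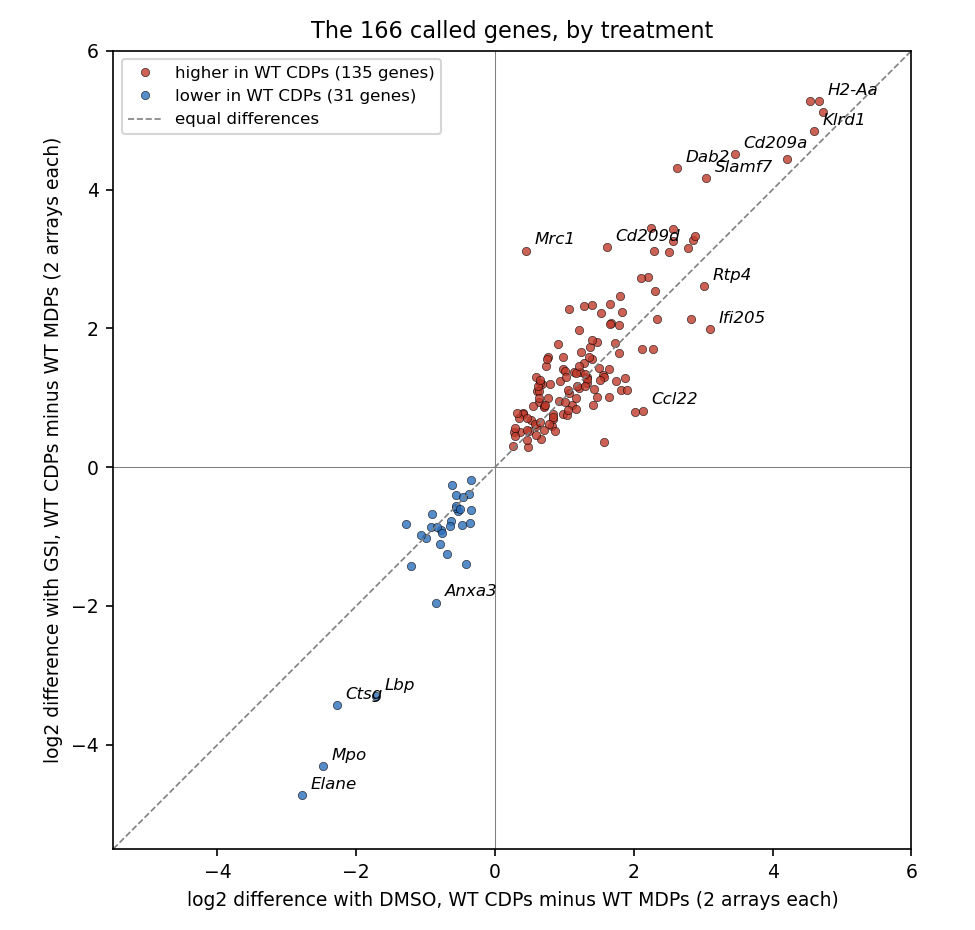
Log2 difference between WT CDPs and WT MDPs with GSI (vertical axis) against the same difference with vehicle (horizontal axis) for the 166 genes called over both treatments, higher genes in red and lower genes in blue. All 166 genes keep their sign in both treatments, which their choice on the average favours, and *Mrc1* lies farthest from the line of equal differences.

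The step in IkL/L cells, measured on separate arrays, went in the same direction for most of these genes. Its p-values come from the fit that gave the WT calls and share 1 estimate of the spread with them. The counts by p-value that follow are therefore not independent of the WT calls. Of the 135 genes higher in WT CDPs all 135 had a positive difference between IkL/L CDPs and IkL/L MDPs, and 130 had an unadjusted p under 0.05, beside 42.8% and 8.07% of all genes. Of the 31 lower genes 30 were negative and 24 had an unadjusted p under 0.05, beside 9.61% of all genes. The other was *Anxa3*, with a step of 0.30 in IkL/L cells and -1.40 in WT cells (difference 1.70, adjusted p = 0.0213 by limma). The size of the step differed between the genotypes for 80 genes with the higher value in IkL/L cells (0.401%) and 32 with the higher value in WT cells (0.16%), and 9 of these 112 genes were among the 166. *H2-Aa* rose by 1.66 in IkL/L cells and by 4.98 in WT cells (difference of the steps -3.32, standard error 0.46, adjusted p = 0.00972), *H2-Ab1* by 1.69 and 4.91 (-3.22, adjusted p = 0.00323) and *Cd74* by 1.78 and 4.33 (-2.55, adjusted p = 0.0289). The step of *Ciita* was 2.27 in IkL/L cells and 2.03 in WT cells. In the opposite direction, *Fscn1* had a step of 4.59 in IkL/L cells and 0.54 in WT cells (difference 4.05, adjusted p = 3.96e-04), *Serpinb6b*, a serine protease inhibitor, 4.09 and 0.28 (adjusted p = 7.66e-04), *Ccr7* 4.92 and 1.15 (adjusted p = 0.0113) and *Ccl22* 4.45 and 1.47 (adjusted p = 0.00149). The number of genes with a different step ranged between 67 and 146 with each array left out.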

How the data were processed

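RNA from 16 samples was amplified and hybridised by the authors to Affymetrix Gene ST mouse arrays. The deposited table holds log2 signals per probe set, which the authors made with robust multi-array average (RMA) in Affymetrix Expression Console 1.4.1. The genome build was not given in the sources used here. Precision rests on how many arrays there are, since array signals carry no read depth.

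Of 28188 probe sets 21789 had 1 gene symbol, 1621 several and 4778 none in the platform annotation. Where a symbol had several probe sets, the brightest on average across the 16 arrays stood for it, which left 19938 genes. Group means of 8 groups of 2 arrays were fitted with limma 3.58.1 in R 4.3.3, over all 16 arrays so that they shared 1 estimate of the spread. Replicate arrays correlated with r between 0.983 and 0.992 in WT groups and between 0.992 and 0.996 in IkL/L groups. Whether the spread differs between the genotypes was not tested. The step was the mean of the WT CDP groups minus that of the WT MDP groups, with Benjamini-Hochberg adjustment over all genes and a threshold of 0.05. The differences of the step between treatments and between genotypes were contrasts of the same fit. The fit was tested on simulated data first.

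Named genes were the 12 largest rises and 12 largest falls past the threshold whose populations did not overlap, up to 6 members that passed in each list (otherwise 2), the 3 largest in each direction for a difference between steps, the genes of the sort gate and transcription factors of DCs. Others are marked as picked with their values known, or given to complete a list. The members and the 27 gene lists were chosen with earlier results of these data known. The labels do not state the animal or culture behind each array, although a Y-linked signal set the WT arrays of the 2 replicate numbers apart, and p-values measure the spread between these arrays. Promoters were matched by symbol to RefSeq (GRCm38.p6), and 105 of the 135 higher and 21 of the 31 lower genes had one.

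Alternatives were another variance prior, a filter on low signals, other normalizations, the mean over probe sets, array weights, a test against a 1.5-fold change, WT arrays or single treatments alone, the replicate number as a block and leaving out each array.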

Additional observations from a re-analysis of the deposited data

Results flagged for a closer look

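Of 160 groups of 4 arrays examined for single arrays far from the rest, 9 held one, and chance gives about 1 in 20. GSI-treated WT CDP replicate 2 was set apart by high signals of *Cd209a* (9.93, beside 8.87 to 8.95 in the other CDP arrays), *Cd74* (11.92, beside 10.97 to 11.11) and *H2-Ab1* (11.76, beside 11.25 to 11.33). The same array had a low signal of *Chil3* (6.10, beside 10.18 to 10.36). Vehicle-treated WT CDP replicate 2 was set apart by high signals of *Ctsg* (10.69, beside 7.37 to 7.77) and *Rab44* (5.79, beside 5.03 to 5.10). Among WT MDPs, GSI-treated replicate 1 was low for *H2-Ab1* (5.55, beside 6.75 to 6.90), vehicle-treated replicate 2 was low for *Cd7* (4.24, beside 4.65 to 4.72), and GSI-treated replicate 2 was high for *Mrc1* (5.03, beside 4.30 to 4.41).

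The step from MDPs to CDPs differed between IkL/L and WT cells by limma's test of the difference for 112 genes. The 3 largest in each direction are given here. It was larger in IkL/L cells for *Fscn1* (by 4.05, adjusted p = 3.96e-04), *Serpinb6b* (by 3.81, adjusted p = 7.66e-04) and *Ccr7* (by 3.77, adjusted p = 0.0113). It was smaller in IkL/L cells for *H2-Aa* (difference of the steps -3.32, adjusted p = 0.00972), *H2-Ab1* (-3.22, adjusted p = 0.00323) and *Cd74* (-2.55, adjusted p = 0.0289).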

How the results depend on the processing

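No named gene that passed changed direction under the alternatives run. Of those that did not pass, *Prc1* changed sign with vehicle alone (-0.06, against 0.76), and *Cd79b*, a B cell gene, without GSI-treated WT MDP replicate 1 or CDP replicate 2 (-0.03 and -0.09, against 0.24). Of the 135 higher and 31 lower genes, the counts became 18 and 1 with the 8 WT arrays alone, 194 and 49 among the 9969 genes above the median signal (fewer genes tested), 73 and 8 with array weights, 23 and 0 against a 1.5-fold change, 19 and 0 with vehicle alone and 33 and 2 with GSI alone. A variance prior with trend gave 169 and 40, quantile normalization 142 and 44, subtracted array medians 121 and 24 and the mean over probe sets 135 and 33. With the replicate block they were 229 and 80, including all 135 and all 31. Higher genes of the lists then numbered 7 DC transcription factors, 11 pDC, 10 cDC and 7 class II genes, against 4, 7, 9 and 5. Nothing in the labels ties a replicate number to 1 animal. Deviations of same-numbered WT arrays correlated with r between 0.14 and 0.59, and those involving IkL/L arrays with r between -0.25 and 0.66. Chosen after seeing the data, a replicate block within each genotype gave 268 and 135, and the 8 WT arrays alone with the replicate block gave 60 and 8. Leaving out 1 array gave 61 to 227 higher genes and 6 to 89 lower genes. They were 65 and 19, 61 and 9, and 61 and 6 without WT MDP vehicle replicate 1, GSI replicate 1 and vehicle replicate 2, and 222 and 72 without GSI replicate 2. Without WT CDP vehicle replicates 1 and 2 they were 81 and 12, and 191 and 65, and without GSI replicates 1 and 2 they were 227 and 89, and 73 and 9. The cause was not tested. The differences between steps were refitted with the replicate block, the variance prior with trend, the genes above the median signal, quantile normalization and each array left out. The step differed between GSI and vehicle for 0 genes in these except without WT MDP GSI replicate 2 (1 gene). Between IkL/L and WT it differed for 112 genes, for 164, 133, 86 and 109 under the first 4 of these, and for 67 to 146 with an array left out.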
